A study of Mus musculus with 9 samples.

Results

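The chromatin remodeler and modifier genes are 44 mouse genes that encode subunits of nucleosome-remodeling complexes and enzymes that modify histones or DNA. Open chromatin was read at these genes by ATAC-seq, in which a transposase cuts accessible DNA, in alphaTC1 cells, a mouse pancreatic alpha cell line. The cells had carried an shRNA against Smndc1, an shRNA against Atrx, or an empty vector for 5 days, with 3 libraries in each group, named by the labels as individual biological replicates. Smndc1 is a splicing factor and Atrx is itself a chromatin remodeler of the Snf2 family. All groups share the same parent cell line and the transduction, the labels name no second shRNA for either target and no other treatment. The comparisons ask whether accessibility at genes of the chromatin machinery differed when either factor was targeted. Openness at Smndc1 or Atrx is no check of the knockdown, since an shRNA acts on RNA, so the strength of the knockdown is not known here.

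Members were chosen by gene symbol, with earlier results of these data known. A consensus region of open chromatin belongs to a member when it overlaps the gene on mm10 extended by 1 kb on both sides, and it is a gene-end region when it reaches the stretch around an end of the gene that runs 1000 bp outward and 500 bp inward. Of 80827 regions in the count table, 206 belong to members, 60 at gene ends and 146 elsewhere, and all 206 passed the filter on low counts, which 80345 regions passed in all. Of the 44 genes, 43 have a region, 39 of them at an end. Smarcd2, which encodes an accessory SWI/SNF subunit, has no overlapping region, and Dnmt1, Dnmt3a, Kdm6a and Chd3 have regions but none at an end. For each member, the representative region is its strongest gene-end region, or its strongest region where it has none at an end. An end is an outer bound of the gene and need not be the transcription start given by RefSeq. The representatives of Dnmt1 and Kdm6a hold that start, while those of Bcor, Crebbp and Smarcd3, at 5′ ends, do not.

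Chromatin remodelers use ATP to slide, evict or exchange nucleosomes. SWI/SNF complexes open promoters and enhancers, ISWI and CHD enzymes space nucleosomes, INO80 and Ep400 complexes exchange histone variants, and NuRD joins a CHD remodeler to histone deacetylases. Modifiers add or remove acetyl and methyl groups on histones (Ep300, Crebbp, the Kmt2 and Kdm enzymes, Polycomb) or on DNA (Dnmt and Tet enzymes). Most of these genes are active in nearly every cell type and have CpG-rich promoters, and in mouse islets Dnmt1 is known for keeping beta cells from turning into alpha cells, while SWI/SNF complexes work with the beta cell factor Pdx1.

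The libraries held 5.29 to 8.15 M counts over the regions, and replicate 3 of every group stood apart: the strongest 10% of regions held 38.6% to 38.8% of its counts, against 43.3% to 48.8% in the other 6 libraries. All 6 alpha cell markers looked for, Gcg among them, have an open region. Of 6 beta cell markers only Mafa and Nkx6-1 do, and none overlaps Ins1, Ins2, Pdx1 or Slc2a2. Regions at markers of acinar, endothelial, fibroblast and leukocyte genes were present for 2 of 4, 4 of 4, 3 of 4 and 2 of 4 genes. The summed levels of 4 of these 6 lists overlapped between all groups. The 13 endothelial marker regions summed to 65.5 to 81.5 CPM with Smndc1 shRNA, 61.0 to 92.4 CPM with Atrx shRNA and 86.3 to 98.3 CPM with empty vector, so that Smndc1 shRNA lay below empty vector. The 9 leukocyte marker regions summed to 13.1 to 15.6 CPM with Smndc1 shRNA, 8.35 to 12.2 CPM with Atrx shRNA and 9.47 to 14.96 CPM with empty vector, so that Smndc1 shRNA lay above Atrx shRNA. The part of these markers in the results was not tested. CPM here are counts relative to library size in M, normalised with edgeR's TMM factors.

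The promoters of these genes are GC-rich, and 5 of them, from strongly and weakly open genes, are shown here so that their bases can be compared. RefSeq promoter entries on GRCm38.p6, the assembly of mm10, matched 35 of the 44 members, and 30 members have an open region that holds the RefSeq start. The sequences below are the 250 bases before the start, read 5′ to 3′ on the gene's strand, and are credited to RefSeq. Mbd3 (chr10:80399532-80399781, minus strand) and Smarca2 (chr19:26604910-26605159, plus strand) have the most open representative regions per kb. Smarca5 (chr8:80739460-80739709, minus strand) and Smarca1 (chrX:47892614-47892863, minus strand) are the ISWI ATPase pair, which differ in openness. Tet1 (chr10:62887325-62887574, minus strand) is among the least open. Capitals mark matches, on either strand, to the GC box GGGCGG, the ETS motif CCGGAAG, the NRF1 motif (a pair of GCGC blocks with any 2 bases between them), CCAAT, the YY1 motif AAGATGGCG and TATAAA. Matches of different motifs may share bases.
Mbd3: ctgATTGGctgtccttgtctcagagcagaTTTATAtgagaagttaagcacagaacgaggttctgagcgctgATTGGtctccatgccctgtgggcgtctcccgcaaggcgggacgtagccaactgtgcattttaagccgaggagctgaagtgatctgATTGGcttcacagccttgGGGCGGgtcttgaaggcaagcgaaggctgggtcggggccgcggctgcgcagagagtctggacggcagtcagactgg
Smarca2: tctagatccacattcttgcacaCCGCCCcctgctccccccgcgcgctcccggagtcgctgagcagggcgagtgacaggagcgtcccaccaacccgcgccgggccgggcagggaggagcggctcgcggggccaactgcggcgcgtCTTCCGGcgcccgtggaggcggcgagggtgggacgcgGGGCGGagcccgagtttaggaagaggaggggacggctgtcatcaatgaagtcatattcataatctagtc
Smarca5: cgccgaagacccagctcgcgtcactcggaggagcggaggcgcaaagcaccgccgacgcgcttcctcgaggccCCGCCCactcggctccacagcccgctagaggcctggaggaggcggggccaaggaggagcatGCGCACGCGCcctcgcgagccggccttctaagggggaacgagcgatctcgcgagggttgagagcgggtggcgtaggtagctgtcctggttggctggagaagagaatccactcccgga
Smarca1: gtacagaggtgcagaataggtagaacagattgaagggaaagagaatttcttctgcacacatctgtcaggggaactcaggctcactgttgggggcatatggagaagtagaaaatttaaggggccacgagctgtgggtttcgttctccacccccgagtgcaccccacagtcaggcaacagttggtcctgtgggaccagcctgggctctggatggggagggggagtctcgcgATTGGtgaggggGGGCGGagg
Tet1: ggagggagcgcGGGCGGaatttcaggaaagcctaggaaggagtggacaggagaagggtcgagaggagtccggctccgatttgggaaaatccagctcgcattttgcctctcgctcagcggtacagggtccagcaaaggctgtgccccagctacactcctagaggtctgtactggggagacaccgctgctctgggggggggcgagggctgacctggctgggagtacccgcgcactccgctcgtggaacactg

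Smarca5 holds 29 CpG in these 250 bases and a match to the NRF1 motif, while its paralog Smarca1 holds 6 CpG, and the last 2 matches before the Smarca1 start are a CCAAT and a GC box. Mbd3 holds 14 CpG with 3 CCAAT matches and a TATA match, Smarca2 holds 28, and Tet1 holds 15. Over the window from 250 bases before to 50 after the start, the 35 members had a median GC content of 68.3% and 32 CpG, with an observed-to-expected CpG ratio of 0.936. All 27025 promoters in the table had medians of 52.7%, 7 and 0.389, and the 9433 genes with an open gene-end region had 60.7%, 21 and 0.765. A GC box was found in 31 of 35 members (88.6%), in 63.8% of the promoters of genes with an open end and in 35.9% of all promoters. The NRF1 motif was found in 31.4% of members, 14.0% of promoters with an open end and 6.43% of all. The ETS motif (11.4%, 18% and 9.12% in that order of sets), CCAAT (28.6%, 39.6% and 37.9%), YY1 (2.86%, 3.16% and 1.49%) and TATAAA (5.71%, 7.13% and 14.2%) were no more frequent in members than in genes with an open end. Among the 31 members with a promoter entry and an end region, CpG number had little relation to CPM per kb of the representative region across genes (Spearman rho 0.0894), and genes are not independent replicates. Division by width lowers wide regions, and the regions of Kmt2d, Smarcd1, Smarcd3, Bcor and Crebbp do not hold the start beside which CpG were counted. A match describes letters in a window and is not a binding site.

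Members were open more often than coding genes at large. A region overlapped 97.7% of members and 69.3% of the 21896 coding genes, and a gene-end region was present for 88.6% of members and 53.5% of coding genes. These genes are long, with a median of 65.0 kb against 25.5 kb for coding genes with a region, and the number of regions followed length over the 43 members (Spearman rho 0.546, a description across genes). Per 100 kb they held 6.68 regions in the median, against 8.63 for coding genes with any region. Arid1b held 29 regions, Bcor 13, Arid2 11 and Smarca2 10. Of the 60 gene-end regions, 39 lie at a 5′ end, 7 at a 3′ end and 14 at genes for which no strand was available, and 10 also lie at the end of another coding gene, so that their openness cannot be given to 1 of the genes.

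Openness of the representative regions ranged from 10.7 to 141 CPM per kb of region, averaged over the 9 libraries, the scale on which genes are compared here. The 39 that lie at gene ends had a median of 53.2 CPM per kb, against 40.0 for the strongest end region of the 11707 coding genes that have one tested. Of the 39, 25 were above that median, 11 above the 75th percentile and 5 below the 25th percentile of those genes. Mbd3, the NuRD subunit that lacks methyl-CpG binding in mammals, led with 141 CPM per kb, and its libraries ran from 111 to 195. It was followed by Smarca2, the BRM ATPase of SWI/SNF, with 106 (76.5 to 160), Ep400, the ATPase of the Tip60 complex, with 102 (79.3 to 131), and Ezh2, the Polycomb methyltransferase, with 92.8 (64.9 to 127). Per kb, Mbd3 was above each other representative in all 9 libraries, whereas the order of Smarca2, Ep400 and Ezh2 changed between libraries. The ranking depends on region width. Without division by width, Ep300 had a mean of 108 CPM over 1498 bp, above Mbd3 with 79.8 CPM over 564 bp. Chd4 had 77.7 CPM over 2048 bp. At the low end were Bcor with 10.7 CPM per kb (6.73 to 14.6), Tet1 with 12.4 (8.10 to 17.1) and Smarca1 with 13.0 (8.12 to 16.6), whose order also changed between libraries and which lie below every library of the 4 leading genes. Member regions away from gene ends had a median of 13.0 CPM per kb, against 8.79 for all tested gene-body regions.

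**Figure D1:**
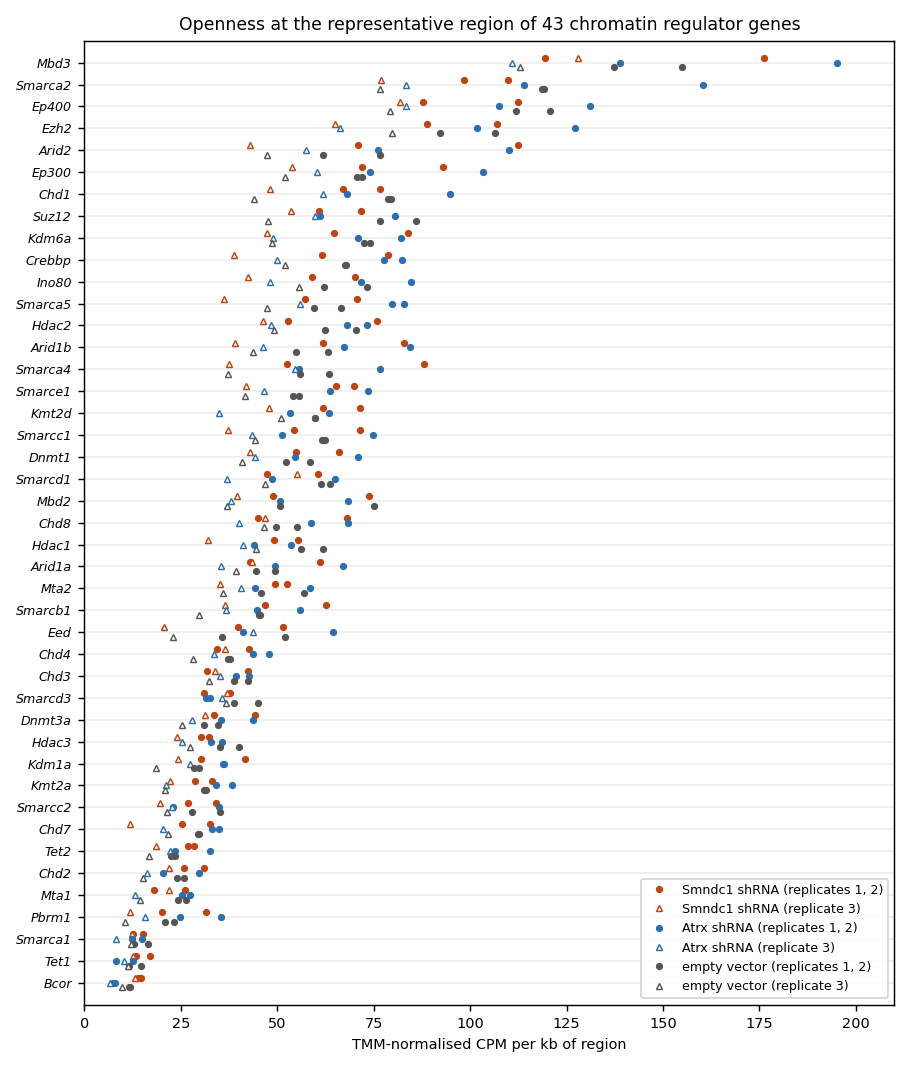
Openness at the representative region of 43 chromatin regulator genes, in TMM-normalised CPM per kb of region on a linear axis, 1 row per gene in falling order and 1 point per library (open triangles are replicate 3). Mbd3 leads with a mean of 141 CPM per kb and Bcor is last with 10.7, and replicate 3 lies at the low end of most rows.

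Within the SWI/SNF family, Smarca2 was the most open gene per kb of region. It stood at 106 CPM per kb and Smarca4, the BRG1 ATPase, at 57.9. The 6 core subunits with a region ran from 27.3 (Smarcc2) to 56.9 CPM per kb (Smarce1), and the representative of Smarcd1 lies at the 3′ end of that gene. Undivided by width, Smarcc2 had 51.5 CPM over 1888 bp and Smarce1 57.1 CPM over 1003 bp. Among the subunits that direct the complex, Arid2 (72.8 CPM per kb) and Arid1b (60.4) were higher than Arid1a (48.1) and Pbrm1 (21.6), although Arid2 and Pbrm1 belong to the same PBAF form of the complex. The Arid2 and Pbrm1 regions each also lie at the end of another gene (Gm38469 and Gnl3).

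The ISWI ATPases Smarca5 and Smarca1 differed in openness. Smarca5 had 32.9, 40.7 and 20.8 CPM at its 575 bp end region with Smndc1 shRNA, 47.7, 45.8 and 32.1 CPM with Atrx shRNA and 38.2, 34.2 and 27.2 CPM with empty vector. Smarca1 had 12.8, 15.4 and 12.5 CPM at its 1019 bp end region with Smndc1 shRNA, 15.1, 12.6 and 8.28 CPM with Atrx shRNA and 16.9, 13.1 and 12.4 CPM with empty vector. Per kb, Smarca5 ran from 36.2 to 82.9 CPM and Smarca1 from 8.12 to 16.6, with no overlap over the 9 libraries. For neither gene did the 3 groups separate.

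CHD remodelers ran from Chd2 (23.3 CPM per kb) and Chd7 (26.5) through Chd3 (37.6) and Chd4 (37.9), the alternative ATPases of NuRD, to Chd8 (53.2) and Chd1 (68.7), a remodeler of transcribed genes. This order depends on width: undivided, Chd4 (77.7 CPM) and Chd3 (71.2) were above Chd1 (60.5) and Chd8 (36.8). Chd2 also has a region of 53.2 CPM away from its ends. Ino80 stood at 63.0 CPM per kb. Among the NuRD and class I deacetylase genes were Mta1 at 21.9, Hdac3, a class I deacetylase, at 31.4, Mta2 at 46.6, Hdac1 at 48.6, Mbd2 at 53.5, Hdac2 at 60.7 and Mbd3 at 141 CPM per kb. Of the 3 core genes of Polycomb repressive complex PRC2, Ezh2 stood at 92.8, Suz12 at 66.4 and Eed at 41.3 CPM per kb. Eed was thus near the median of 40.0 for the strongest end regions of coding genes. Bcor, a corepressor in a variant Polycomb complex, was lowest of all at its end. Per kb, the histone acetyltransferases were close (Ep300 72.3 and Crebbp 64.0 CPM per kb). By CPM over the whole region they were not, with 108 CPM over 1498 bp at Ep300 and 37.2 CPM over 582 bp at Crebbp. Of the histone methylation enzymes, Kdm6a had 65.9, Kmt2d 55.9 at its 3′ end, Kdm1a 30.3 and Kmt2a 29.0 CPM per kb. Undivided by width the order differs, with Kmt2a (67.3 CPM) and Kdm1a (55.8) above Kdm6a (50.4) and Kmt2d (34.0). Kmt2d also has a region of 52.3 CPM away from its ends. The representative regions of Kmt2d, Hdac3 and Mta2 each also lie at an end of another gene (Prkag1, Rell2 and Eml3). Of the DNA methylation enzymes, Dnmt1, which maintains methylation, had 53.9, Dnmt3a, which sets it anew, 34.1, and the demethylating enzymes Tet2 and Tet1 had 23.8 and 12.4 CPM per kb. Tet2 (51.8 CPM over 2176 bp) was above Dnmt3a (36.1 CPM over 1057 bp) when not divided by width.

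With Smndc1 shRNA against empty vector, accessibility at the chromatin regulator genes did not pass the test at any region. edgeR's quasi-likelihood test with TMM factors, adjusted over all 80345 regions, called 0 of 206 member regions, where it called 0.156% of all regions (125), and DESeq2 called 0 as well. The smallest adjusted p at a member was 0.109. At an unadjusted p under 0.05 there were 16 member regions with TMM factors (7.77%, against 8.09% of all regions). A second fit with trended offsets, described with its 1 member call below, gave 36 (17.5%, against 12.5% of all regions). The median log2 fold change was 0.07 over the 206 regions and 0.02 over all regions tested. Over the 43 representative regions it was 0.01, from -0.25 to 0.33, with 23 positive, and all 43 intervals (95%, not adjusted for the number of regions) stayed within a 2-fold change either way. In bulk libraries, fewer cells with an open region and less opening per cell cannot be told apart, here and below.

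By role, the subunits that direct SWI/SNF (Arid1a, Arid1b, Arid2, Pbrm1) had positive fold changes at 4 of 4 representative regions with Smndc1 shRNA, from 0.14 to 0.28 on the log2 scale, the DNA methylation enzymes at 4 of 4, from 0.11 to 0.26, and the histone methyltransferases and histone demethylases at 2 of 2 each. Of the other roles, the CHD remodelers were positive at 3 of 6, the Polycomb genes at 2 of 4, the SWI/SNF ATPases and the acetyltransferases at 1 of 2 each, the SWI/SNF core subunits at 2 of 6, the NuRD and deacetylase genes at 2 of 7, and the ISWI pair and the INO80 and Ep400 pair at 0 of 2. With trended offsets the NuRD and deacetylase genes were positive at 4 of 7 and the ISWI pair at 1 of 2, and the other counts were as with TMM factors. In all, 53.5% of representatives were positive with TMM factors and 60.5% with trended offsets, where 45.6% and 53.9% of the strongest end regions of coding genes were. None of the representative regions passed the test. The highest representative fold changes were at Bcor, at Kdm1a, a histone demethylase, and at Arid2.
Kdm1a had 55.9, 76.8 and 44.7 CPM with Smndc1 shRNA and 52.4, 54.7 and 34.3 CPM with empty vector, a log2 fold change of 0.32 ± 0.26 (SE, edgeR adjusted p = 0.82). Arid2 had 52.4, 83.0 and 31.6 CPM with Smndc1 shRNA and 45.6, 56.5 and 34.9 CPM with empty vector (0.28 ± 0.28, edgeR adjusted p = 0.868), and without replicate 2 of Smndc1 shRNA the value is -0.12. The groups overlap at both genes. The lowest were Hdac1 and Hdac3 (a region also at an end of Rell2), each at -0.25, and Chd7, a CHD remodeler of enhancers, at -0.21.
Chd7 had 33.4, 43 and 15.7 CPM with Smndc1 shRNA and 39.1, 39.2 and 28.5 CPM with empty vector, and without replicate 3 of Smndc1 shRNA its log2 fold change is 0.10. Hdac1 had 28.5, 32.2 and 18.6 CPM with Smndc1 shRNA against 32.6, 35.9 and 25.8 CPM with empty vector, and Hdac3 had 24.3, 25.9 and 19.3 against 28.3, 32.2 and 22.1 CPM. All of these groups overlap.

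**Figure D2:**
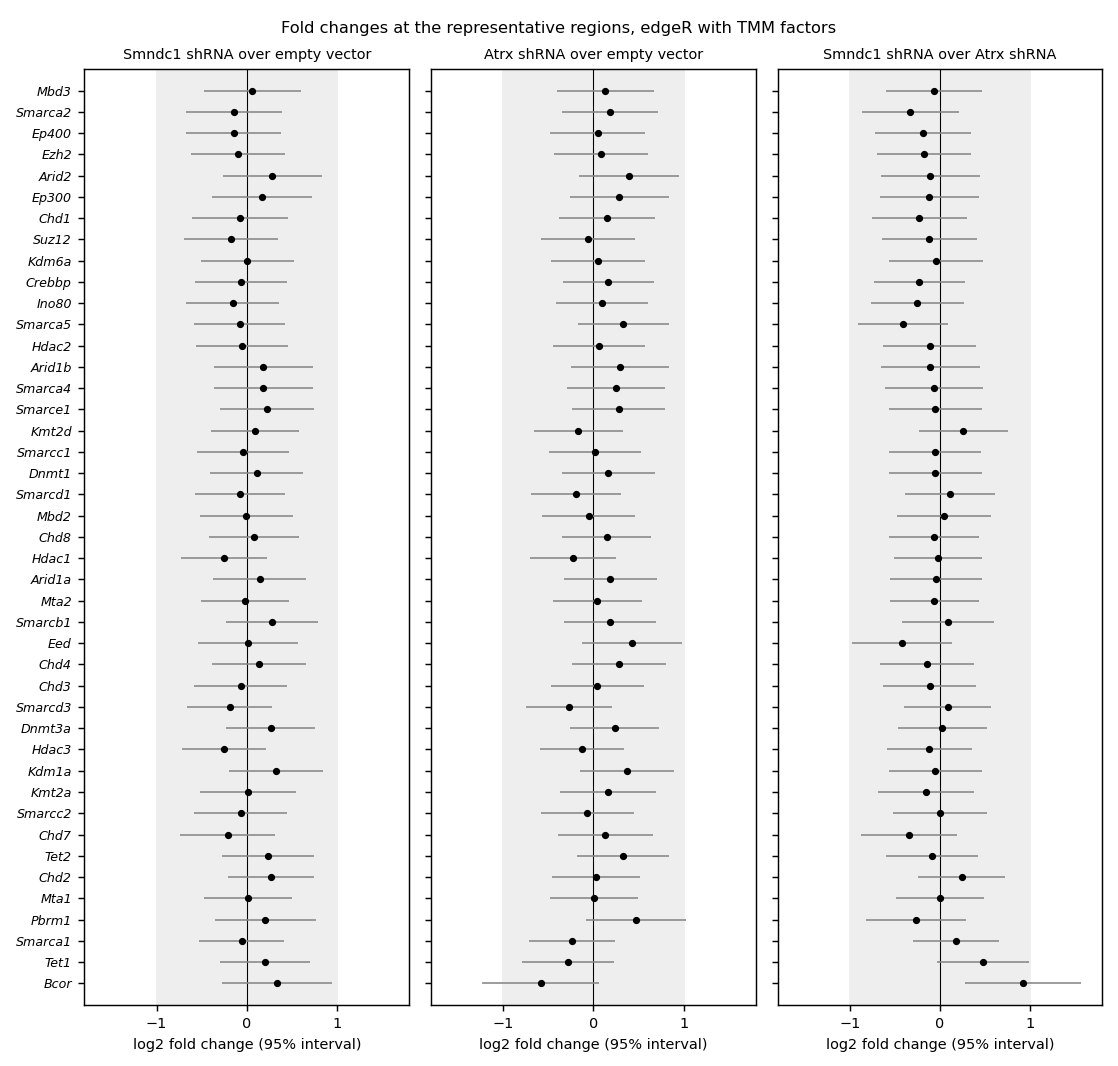
Log2 fold changes at the representative regions in the 3 comparisons, from edgeR with TMM factors, with 95% intervals that are not adjusted for the number of regions; genes are in order of openness and the grey band marks a 2-fold change either way. Intervals stay within the band for 43 of 43 genes with Smndc1 shRNA over empty vector, 41 of 43 with Atrx shRNA over empty vector and 42 of 43 with Smndc1 shRNA over Atrx shRNA.

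One region in Smarcd3 passed a second edgeR fit. Smarcd3 encodes a SWI/SNF subunit (BAF60c) that recruits the complex to tissue-specific genes. The second fit replaces the TMM factors by offsets from a loess curve of each library against the mean log2 count, called trended offsets here, which levels out the difference in contrast of replicate 3. It called 1.13% of all regions with Smndc1 shRNA (910, of which 0.416% of all regions were higher) and 1 of 206 member regions. The region, chr5:24622501-24623001, lies inside the outer bounds of Smarcd3, with its centre at -20749 bp from the RefSeq start. It had 8.68, 13.0 and 17.9 CPM with Smndc1 shRNA, 5.94, 8.40 and 14.1 CPM with Atrx shRNA and 7.85, 8.17 and 5.17 CPM with empty vector. All 3 Smndc1 shRNA libraries lie above all 3 empty vector libraries, while the Atrx shRNA libraries overlap both. The log2 fold change was 0.96 ± 0.27 (SE, edgeR adjusted p = 0.0379) with trended offsets and 0.89 ± 0.28 with TMM factors (edgeR adjusted p = 0.216). The call held in 3 of 9 fits that left out a library: it was lost without replicate 2 of Atrx shRNA (adjusted p = 0.0567), replicates 1, 2 or 3 of empty vector (0.166, 0.132 and 0.137) and replicates 2 or 3 of Smndc1 shRNA (0.0921 and 0.277). Without replicate 3 of every group, the library that stands apart, the value was 0.53 (edgeR adjusted p = 0.463).

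The other regions with the smallest p lie inside SWI/SNF and DNA methylation genes, and were picked after their values were seen. A region near the 3′ end of Smarcc2, which encodes a SWI/SNF scaffold subunit (chr10:128489308-128489808), had 7.65, 8.64 and 5.92 CPM with Smndc1 shRNA, 10.1, 11.3 and 8.77 CPM with Atrx shRNA and 15.6, 14.3 and 12.5 CPM with empty vector. The 3 groups do not overlap there, and the log2 fold change with Smndc1 shRNA was -0.93 ± 0.25 (edgeR adjusted p = 0.109 with TMM factors and 0.0715 with trended offsets). A region in Dnmt3a (chr12:3887100-3888088) had 18.1, 20.5 and 17.1 CPM with Smndc1 shRNA, 20.7, 23.3 and 17.0 CPM with Atrx shRNA and 33.2, 25 and 29.6 CPM with empty vector. Both shRNA groups lie below every empty vector library, and the log2 fold changes were -0.66 ± 0.23 with Smndc1 shRNA (edgeR adjusted p = 0.313) and -0.52 ± 0.23 with Atrx shRNA (0.812). Both comparisons share the empty vector libraries. By libraries alone, 13 of the 206 member regions had all 3 Smndc1 shRNA libraries above all 3 of empty vector and 13 had them below (12.6% together), where 12.8% of all regions separate in that way. At gene ends 1 was above and 1 below, where 7.27% of all gene-end regions separate.

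**Figure D3:**
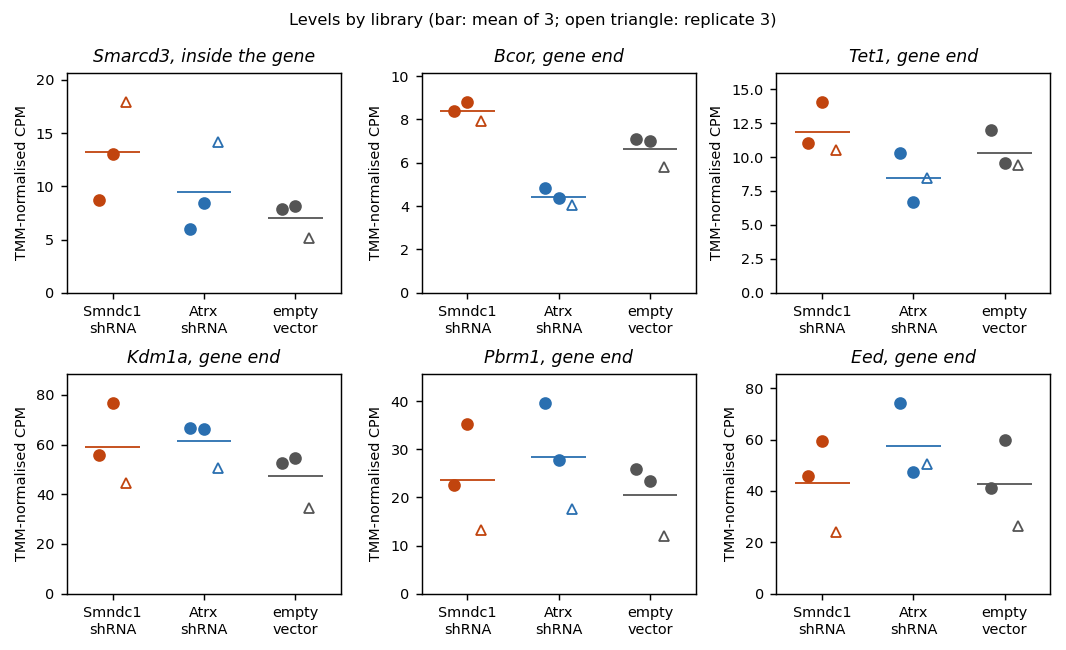
TMM-normalised CPM in each library at 6 regions, with the mean of 3 libraries as a bar and replicate 3 as an open triangle, on axes that start at 0. At the Bcor end the 3 groups do not overlap, at the Smarcd3 region all Smndc1 shRNA libraries lie above the empty vector, and at Kdm1a, Pbrm1 and Eed the groups overlap and replicate 3 is lowest except at Eed with Atrx shRNA.

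With Atrx shRNA against empty vector, no region passed edgeR with TMM factors anywhere in the table (0% called, 0 of 80345), and so 0 of 206 member regions did. DESeq2 called 0, and 4618 regions (5.75%) had an unadjusted p under 0.05, as did 15 member regions (7.28%). With trended offsets 0.269% of all regions were called (216) and 0 of the members, whose smallest adjusted p was 0.0864, at a region in Smarca2; 32 members had an unadjusted p under 0.05 (15.5%, against 9.58% of all regions). The median log2 fold change was 0.05 over the 206 regions and 0.01 over all regions. At the 60 gene-end regions, 41 fold changes were positive (68.3%), where 47.0% of all gene-end regions were, and the median was 0.15 against -0.02. Over the 43 representatives the median was 0.13, from -0.58 to 0.47, with 32 positive.

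By role, the representative fold changes with Atrx shRNA were positive at 6 of 6 CHD remodelers, 4 of 4 directing SWI/SNF subunits and 2 of 2 each of the SWI/SNF ATPases, acetyltransferases, histone demethylases and the INO80 and Ep400 pair. They were positive at 3 of 4 DNA methylation enzymes, 4 of 7 NuRD and deacetylase genes, 3 of 6 SWI/SNF core subunits, 2 of 4 Polycomb genes and 1 of 2 each of the ISWI ATPases and histone methyltransferases, and each count was the same with trended offsets. In all, 74.4% of representatives were positive, where 43.9% of the strongest end regions of coding genes were, and none of the 43 passed the test. Pbrm1, the PBAF bromodomain subunit, had 39.7, 27.9 and 17.7 CPM with Atrx shRNA and 25.9, 23.5 and 11.9 CPM with empty vector (0.47 ± 0.28, edgeR adjusted p = 0.918). Eed, which reads the Polycomb mark for PRC2, had 74.3, 47.5 and 50.6 CPM with Atrx shRNA and 41.3, 60.1 and 26.5 CPM with empty vector (0.43 ± 0.28, edgeR adjusted p = 0.935). Arid2 followed at 0.39 ± 0.28. At each of these the groups overlap. Lowest were Bcor at -0.58 ± 0.33 (edgeR adjusted p = 0.905), Tet1 at -0.28 ± 0.26 and the Smarcd3 end at -0.27 ± 0.24. The Smarcd3 end had 29.7, 28.8 and 32.6 CPM with Atrx shRNA and 41.2, 35.5 and 33.5 CPM with empty vector, so that all Atrx shRNA libraries lie below all empty vector libraries by a narrow margin. Of the 60 gene-end regions, 0 had all Atrx shRNA libraries above and 3 had them below those of empty vector, where 6.81% of all gene-end regions separate either way.

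Summed over the 60 gene-end regions, the members held 2871, 2301 and 1814 CPM with Atrx shRNA, 2154, 2739 and 1653 CPM with Smndc1 shRNA and 2257, 2392 and 1664 CPM with empty vector, and replicate 3 is lowest in each group. As a share of all gene-end CPM, which moves less with contrast, they took 0.588%, 0.560% and 0.542% with Atrx shRNA, 0.528%, 0.583% and 0.492% with Smndc1 shRNA and 0.505%, 0.527% and 0.495% with empty vector. The 3 Atrx shRNA shares lie above the 3 of empty vector, and the Smndc1 shRNA shares overlap both. Replicate 3 again has the lowest share in each group. This sum is over genes picked for their function and carries no test.

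**Figure D4:**
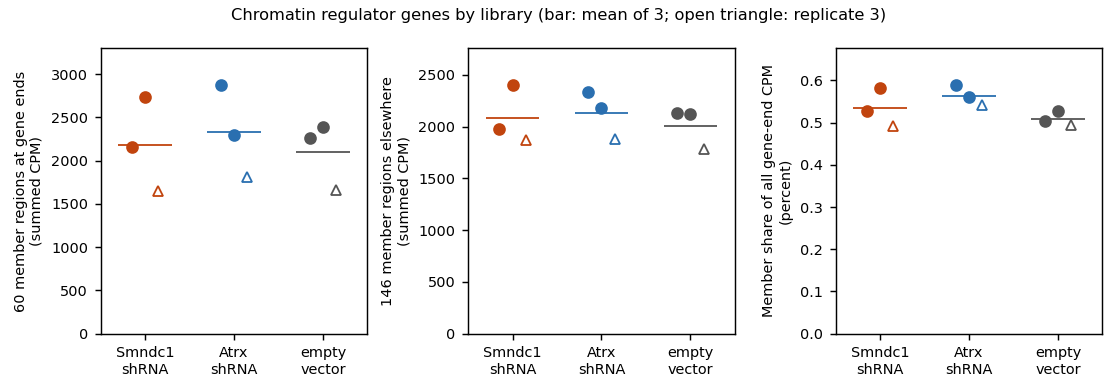
Summed TMM-normalised CPM of the 60 member regions at gene ends (left) and the 146 elsewhere (middle), and the members' percent of all gene-end CPM (right), 1 point per library with the group mean as a bar and replicate 3 as an open triangle. Replicate 3 is the lowest library of each group in every panel, and the Atrx shRNA shares of 0.542% to 0.588% lie above the empty vector shares of 0.495% to 0.527%.

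Between the knockdowns, the end of Bcor had the largest fold change of the 43 representative regions, and it did not pass the test. With Smndc1 shRNA against Atrx shRNA, edgeR called 0 of 206 member regions with TMM factors, where it called 0.0759% of all regions (61), and DESeq2 called 0. With trended offsets it called 0 members and 0.592% of all regions (476), and 14 members (6.80%, against 9.3% of all regions) had an unadjusted p under 0.05. The smallest adjusted p were 0.334 and 0.0892, and with TMM factors 4 member regions (1.94%) had an unadjusted p under 0.05, where 5.4% of all regions did. The median log2 fold change over the 206 members' regions was -0.05, from -1.20 to 1.11. Over the representatives it was -0.07, from -0.42 to 0.92, with 11 of 43 positive (25.6%), where 49.1% of the strongest end regions of coding genes were. These shares were 34.9% and 56.3% with trended offsets.
The Bcor end (chrX:12159445-12160047) had 8.38, 8.81 and 7.95 CPM with Smndc1 shRNA, 4.82, 4.39 and 4.06 CPM with Atrx shRNA and 7.11, 7.0 and 5.79 CPM with empty vector. The 3 groups do not overlap, with Smndc1 shRNA highest and Atrx shRNA lowest. The log2 fold change between the knockdowns was 0.92 ± 0.32, with an interval of 0.27 to 1.56 (edgeR adjusted p = 0.496), and with Smndc1 shRNA over empty vector it was 0.33 ± 0.31 (edgeR adjusted p = 0.855). Tet1 had 11.0, 14.1 and 10.5 CPM with Smndc1 shRNA and 10.3, 6.68 and 8.44 CPM with Atrx shRNA (0.48 ± 0.26, edgeR adjusted p = 0.963), again with no overlap. Kmt2d stood at 0.26 ± 0.25 at its 3′ end, where Prkag1 also has an end. On the other side were Eed at -0.42 ± 0.28, Smarca5 at -0.41 ± 0.25 and Chd7 at -0.34 ± 0.27, all with overlapping groups. Of the 60 gene-end regions, 2 separated upward and 1 downward, where 6.29% of all gene-end regions separate.

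The genes with many regions show where their openness lies. Beyond the representatives and the called Smarcd3 region, the regions described for Arid1b, Bcor and Smarcd3 were picked after their values were seen. Arid1b, with 29 regions over 353 kb, had its strongest region at the 5′ end (chr17:4994723-4995976), with 77.6, 104 and 48.9 CPM with Smndc1 shRNA, 106, 84.4 and 58.1 CPM with Atrx shRNA and 68.7, 79.1 and 54.8 CPM with empty vector. A pair of regions deep in the gene, at chr17:5189664-5190289 and chr17:5261225-5262639, averaged 62.0 and 62.4 CPM over the 9 libraries, and per kb the first of them (99.1) was more open than the 5′ end (60.4). Of the 29, 2 had an unadjusted p under 0.05 with Smndc1 shRNA, 2 with Atrx shRNA and 1 between the knockdowns, and the largest was a region at chr17:5132351-5133124 with 8.53, 14.7 and 11.3 CPM with Smndc1 shRNA and 6.26, 5.73 and 6.49 CPM with Atrx shRNA (0.90 ± 0.28, edgeR adjusted p = 0.334). The level at that region did not overlap between the knockdowns.

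In Bcor, the end region is the weakest of 13. The strongest lies inside the gene (chrX:12086872-12088757), with 58.1, 82.2 and 43.8 CPM with Smndc1 shRNA, 84.3, 73.1 and 53.9 CPM with Atrx shRNA and 61.6, 63.2 and 41.6 CPM with empty vector. There the log2 fold change between the knockdowns was -0.20 ± 0.27, opposite in sign to that at the end, and with Atrx shRNA over empty vector it was 0.34 ± 0.27. In Smarcd3, with 8 regions and 25.1 regions per 100 kb, the strongest (chr5:24604384-24605252) had 88.5, 99.1 and 75.3 CPM with Smndc1 shRNA, 88.0, 77.7 and 65.7 CPM with Atrx shRNA and 81.0, 89.2 and 62.1 CPM with empty vector, and its groups overlap. Its log2 fold change with Smndc1 shRNA was 0.18 ± 0.26, against 0.89 ± 0.28 at the weaker region that the second fit called and -0.19 ± 0.24 at the gene end. A region near the 3′ part of Smarcd3 (chr5:24596280-24596780) had 16.9, 22.2 and 25 CPM with Smndc1 shRNA and 10.4, 16.0 and 13.1 CPM with Atrx shRNA, which do not overlap (0.70 ± 0.23, edgeR adjusted p = 0.414 with TMM factors and 0.0892 with trended offsets).

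**Figure D5:**
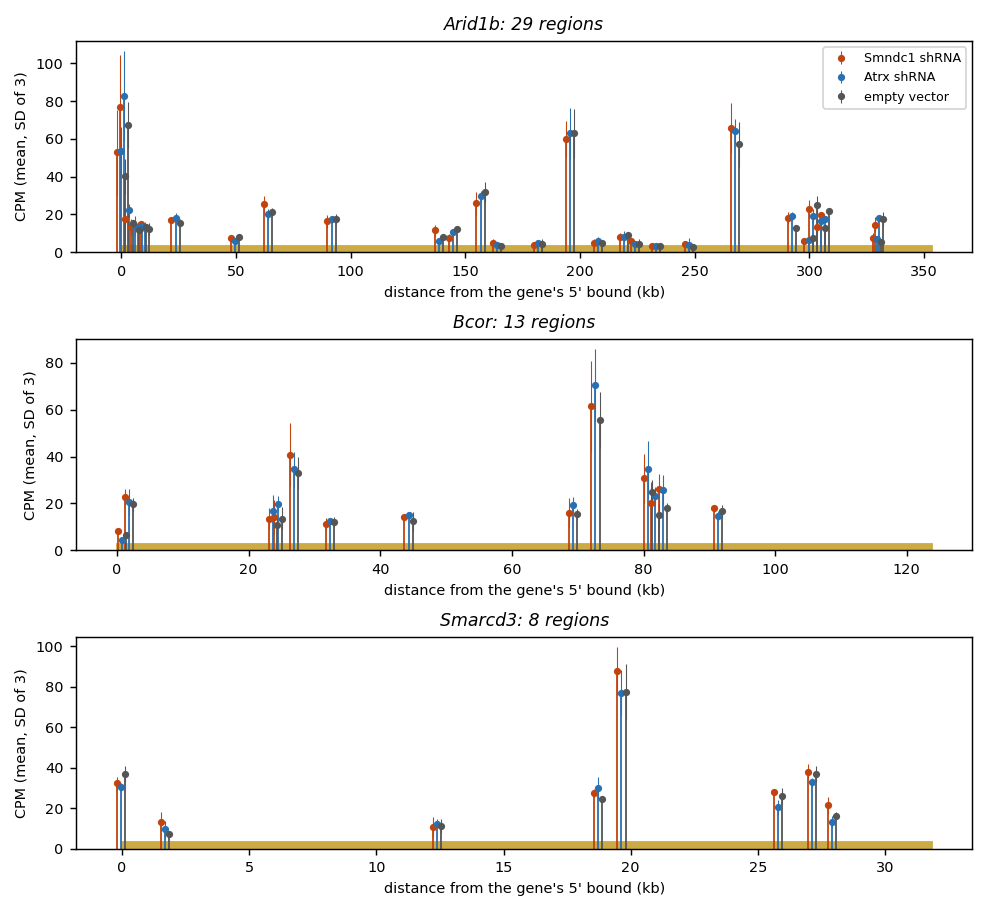
Mean TMM-normalised CPM with SD (n = 3) for each group at the regions of Arid1b, Bcor and Smarcd3, plotted by distance of the region's centre from the gene's 5′ bound in kb, with the gene as a yellow bar; the 3 groups are drawn slightly apart. The strongest region of Arid1b is at its 5′ end, whereas those of Bcor and Smarcd3 lie inside the genes, and the SDs of the groups overlap at most regions.

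A wider list of 124 other chromatin regulators, 123 of them with 516 regions (514 tested), gave 1 call with TMM factors (0.195% of the tested regions, with Smndc1 shRNA against empty vector, where 0.156% of all regions were called). A region in Kat6a, a histone acetyltransferase (chr8:22934403-22934934), fell with Smndc1 shRNA to 6.91, 4.58 and 4.40 CPM, against 14.1, 12.7 and 10.3 CPM with empty vector, with 8.03, 8.21 and 7.14 CPM with Atrx shRNA (log2 fold change -1.21 ± 0.28, edgeR adjusted p = 0.0357). The Smndc1 shRNA and empty vector libraries do not overlap. The call was lost without replicate 1 or 2 of empty vector (adjusted p = 0.409 and 0.241) or any 1 of the Smndc1 shRNA libraries (0.0749, 0.125 and 0.107).

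With trended offsets, 5 regions of that list were called with Smndc1 shRNA, 2 higher and 3 lower. The 3 lower ones are in acetyltransferase genes: Kat2b at -0.75 ± 0.16 (edgeR adjusted p = 0.00209), Kat6a at -1.15 ± 0.29 (0.0146) and Kat6b at -0.98 ± 0.28 (0.0468). Kat2b had 20.9, 25.3 and 15.9 CPM with Smndc1 shRNA and 35.1, 39.4 and 33.7 CPM with empty vector, with no overlap, and was called in 9 of 9 fits that left out a library. With TMM factors its adjusted p was 0.192. Among the higher ones was a region in Kdm6b, a histone demethylase (0.63 ± 0.16, edgeR adjusted p = 0.0207). With Atrx shRNA 5 were called, all higher, among them a pair of Brd2 regions (0.55 ± 0.13 and 0.45 ± 0.11), Ino80d (0.60 ± 0.14) and Bicral (0.50 ± 0.12). Both comparisons use the same empty vector libraries. The end of Brd2, a bromodomain protein, was also called lower with Smndc1 shRNA than with Atrx shRNA (-0.47 ± 0.13, edgeR adjusted p = 0.0395, held in 3 of 9 fits, highest 0.299). Bicral was named after its values were seen. The Brd2 and Ino80d calls with Atrx shRNA were lost without replicate 1 or 2 of Atrx shRNA or any 1 of the empty vector libraries (highest adjusted p = 0.187 at the Brd2 end, 0.227 at the other Brd2 region and 0.345 at Ino80d). The Kdm6b call was lost without any 1 of the empty vector libraries or replicate 3 of Smndc1 shRNA (highest 0.252), and the Kat6b call held only without replicate 3 of Atrx shRNA (highest 0.214). These 5, 5 and 1 calls of 514 tested regions (0.973%, 0.973% and 0.195%) compare with 1.13%, 0.269% and 0.592% of all regions.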

How the data were processed

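Per the labels' protocols, 75 bp paired-end reads were made from 9 ATAC-seq libraries, 3 in each of 3 groups. The authors deposited raw counts for 80827 consensus regions and the regions' mm10 positions. The tools listed, per the submitters' processing notes, were MACS2 2.2.7.1, Bowtie2 2.4.4, bedtools 2.27.1, SAMtools 2.8.0 and deepTools 3.5.1. The sources used here do not state their roles, how regions were merged, what was counted (reads, fragments or insertions) or any shift for the transposase, and each could move the level of a region. Gene bounds and promoters came from RefSeq (GRCm38.p6).

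The test was edgeR 4.0.16 in R 4.3.3: quasi-likelihood F test, TMM factors, filterByExpr with a minimum count of 10, robust dispersion, all 9 libraries in 1 fit, Benjamini-Hochberg adjustment over 80345 regions, called under an adjusted p of 0.05. SE is the size of the log2 fold change over the root of F. A second fit used loess offsets with a span of 0.3. DESeq2 1.42.0, other size factors, other filters, 6 libraries, a replicate block and each library left out were tried. The fit was tested on simulated data. Summaries used matplotlib 3.10.9, scipy 1.17.1, numpy 2.4.6 and pandas 2.3.3 under Python 3.11.15. Library totals ran from 5.29 to 8.15 M counts. With Smndc1 shRNA against empty vector, the median SE of a member's log2 fold change was 0.27 with TMM factors and 0.23 with trended offsets. At the 43 representative regions it was 0.26 and 0.13.

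Named member regions are those called and, in each comparison, the 3 highest and 3 lowest representative fold changes; of the other regulators, up to 4 called ones a comparison and fit were named. Exceptions are marked, and some called regions are not reported here. The members and lists were chosen with earlier results of these data known. P-values measure the spread between these cultures of 1 cell line.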

Additional observations from a re-analysis of the deposited data

How the results depend on the processing

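With TMM factors, the 0 member calls of each comparison stayed 0 with DESeq2, DESeq2 size factors in edgeR, no filter, a mean count of at least 50, 6 libraries and replicate 3 of every group left out. With Smndc1 shRNA against empty vector the count was 1 with trended offsets and 3 with replicate 3 of every group left out and trended offsets, a setting chosen after seeing the data; leaving out 1 library gave 0 to 1 with TMM factors (1 without replicate 3 of empty vector) and 0 to 4 with trended offsets (4 without replicate 3 of Smndc1 shRNA). With Atrx shRNA it was 1 with replicate 3 of every group left out and trended offsets, and 0 to 3 without 1 library (3 with trended offsets and without replicate 3 of Smndc1 shRNA). For Smndc1 against Atrx shRNA it was 0 to 1 without 1 library. Such fits called, over all regions in this comparison, from 0 higher and 1 lower to 33 and 74 with TMM factors. The range was from 41 and 97 to 185 and 332 with trended offsets. Over all regions with Smndc1 shRNA, 204 were called higher and 405 lower with TMM factors and without replicate 3 of empty vector. With trended offsets, 401 and 609 were called without replicate 3 of Smndc1 shRNA, and 412 and 612 without replicate 3 of every group. With Atrx shRNA the same trended settings called 318 and 136, and 296 and 92. The causes were not tested. The log2 fold change of Arid2 with Smndc1 shRNA reversed without replicate 2 of Smndc1 shRNA (-0.12). That of Chd7 reversed without replicate 3 of Smndc1 shRNA (0.10, and 0.045 with trended offsets) and with replicate 3 of every group left out and trended offsets (0.026). Without 1 library each, the TMM values ran from -0.12 to 0.56 at Arid2 and from -0.53 to 0.10 at Chd7.

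Same-numbered libraries were not paired: correlations of deviations between same-numbered libraries ran from -0.04 to 0.42, and only those of replicate 3 (0.419, 0.313 and 0.352) were all above 0.1. With a replicate block, edgeR called 3 member regions with Smndc1 shRNA (1 higher and 2 lower), 1 with Atrx shRNA and 1 between the knockdowns, and with the block and trended offsets 5, 5 and 2. Of all 80345 regions, the block called 307 higher and 961 lower with Smndc1 shRNA, 156 and 75 with Atrx shRNA, and 172 and 442 between the knockdowns. With the block and trended offsets these were 872 and 1250, 535 and 257, and 458 and 679. The called Smarcd3 region stood at 0.82 (adjusted p = 0.0493) with the block and TMM factors and at 0.90 (0.0170) with the block and trended offsets, so the block alone put it past the threshold. With Smndc1 shRNA and TMM factors, 125 of 206 member intervals stayed within a 2-fold change either way. These were 53 of 60 at gene ends and 72 of 146 elsewhere, and all 43 intervals of the representative regions did.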
